A study of Mus musculus with 4 samples.

Results

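Horizontal cells are interneurons of the outer retina whose processes enter the synaptic terminals of rods and cones and return inhibition to them. A set of 6 horizontal cell genes was followed in whole mouse retina after removal of Nrl, the transcription factor that keeps photoreceptors in the rod state: Lhx1, Onecut1, Onecut2, Prox1, Calb1 and Septin4. They were given by symbol, with earlier results of these data known, and all 6 were found among 19421 genes measured with a probe set of their own. Each had 1 probe set carrying a single gene symbol, so no choice between probe sets was needed.

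The knockout mice were Nrlflox/flox; CAG-CreERTM and the control mice were Nrlflox/+; CAG-CreERTM, so the controls carried a floxed allele and kept an intact one. Mice of both genotypes carried the tamoxifen-dependent Cre, under a promoter that is active in most cell types, and both were given 4-hydroxytamoxifen into the peritoneum once a day from postnatal day 42 to 44. Retinas were taken on day 63, 19 days after the last injection. There were 2 arrays for each genotype, and each array held the RNA of 4 retinas from 2 animals.

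The deposited values are log2 signals per probe set, with array medians between 5.99 and 6.04. No depth exists for arrays, and their number limits the precision of every value. Nrl had 7.57 and 7.05 in the knockout pools, against 8.21 and 8.13 in the control pools, a difference of −0.86 (SE 0.18) that did not pass the test over all genes (limma adjusted p = 0.289). Of the rod genes that mark retina, Gnat1, the α subunit of rod transducin, stood at 9.46 and 9.76 in the knockout pools, against 12.65 and 12.58 in control. Replicate 2 of both genotypes carried high levels of Xist, a non-coding RNA of X inactivation (10.66 in knockout and 10.47 in control), while replicate 1 did not (4.07 in knockout and 4.09 in control). Xist was chosen after its values were seen, and differences are therefore also given within each replicate number.

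Lhx1, Onecut1, Onecut2 and Prox1 encode homeodomain transcription factors. In mice Onecut1 and Onecut2 act in the formation of horizontal cells, Prox1 promotes the horizontal cell fate, and Lhx1 directs young horizontal cells to their layer. Calb1 encodes calbindin, a calcium-buffering protein by which mature horizontal cells are commonly stained, and Septin4 a GTP-binding protein of the septin filament family. Several of these genes are also active elsewhere in the retina, Prox1 in bipolar and AII amacrine cells, Calb1 in amacrine and ganglion cells, and Onecut1 and Onecut2 in ganglion cells. In whole retina, fewer cells of a type and less RNA per cell cannot be told apart.

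Upstream sequence is shown for Lhx1, Onecut1 and Septin4, the 3 matched in the RefSeq promoter table among the 4 members whose knockout arrays both lay below both controls; Calb1 is named only. Each line gives the 250 bases before the start site, 5′ to 3′ on the gene's strand, in build GRCm38.p6. Capitals mark matches on either strand to ATTGAC or ATTGAT, a core bound by Onecut factors, or to TAATCC or TAAGCC, a core bound by the photoreceptor factors Crx and Otx2.
Lhx1, chr11:84525535-84525784, minus strand: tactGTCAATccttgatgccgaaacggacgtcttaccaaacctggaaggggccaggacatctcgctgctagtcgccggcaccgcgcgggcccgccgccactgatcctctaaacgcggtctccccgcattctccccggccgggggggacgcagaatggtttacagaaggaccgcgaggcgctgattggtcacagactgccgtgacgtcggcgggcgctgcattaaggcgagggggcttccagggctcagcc
Onecut1, chr9:74861671-74861920, plus strand: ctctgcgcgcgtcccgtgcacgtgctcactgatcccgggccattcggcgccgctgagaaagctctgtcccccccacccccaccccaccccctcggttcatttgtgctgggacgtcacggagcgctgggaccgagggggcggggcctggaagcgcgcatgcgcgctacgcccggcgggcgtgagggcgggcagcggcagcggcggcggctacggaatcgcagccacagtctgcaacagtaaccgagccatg
Septin4, chr11:87566439-87566688, plus strand, first of its 4 windows: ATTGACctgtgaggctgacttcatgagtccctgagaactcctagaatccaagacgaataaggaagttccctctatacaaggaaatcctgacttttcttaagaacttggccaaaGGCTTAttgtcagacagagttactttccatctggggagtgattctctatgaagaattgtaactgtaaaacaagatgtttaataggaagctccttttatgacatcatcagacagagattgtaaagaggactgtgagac
Lhx1 held GTCAAT, the reverse complement of an Onecut core, from 246 to 241 bases before its start, and this window of Septin4 held ATTGAC from 250 to 245 bases before its start. Septin4 also held GGCTTA, the reverse complement of a Crx and Otx2 core, from 137 to 132 bases before its start, and the other 6 windows searched, of Onecut1, Prox1 and Septin4, held none of these cores. Of 32851 such windows of mouse genes, 11.6% held an Onecut core and 13.9% a Crx and Otx2 core. TAATTA, a core bound by LIM homeodomain factors, was in 4.84% of all windows and in 0 of the 8 windows searched. These windows were of Lhx1, Onecut1, Prox1 and Septin4, and none of Onecut2 or Calb1 was searched. Binding was not measured.

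All 6 horizontal cell genes had a lower mean in knockout than in control retina, and none passed the test. The differences ran from −0.37 for Calb1 to −0.06 for Onecut1, with a median of −0.20, or between 77.3% and 96.0% of the control signal. Over all genes the median difference was −0.0026, and 50.9% of genes had a difference below 0. Of the 6 members 0 were called at a limma adjusted p under 0.05, where 0.201% of all genes were called in either direction and 0.0618% as lower, and only Calb1 had an unadjusted p under 0.05 (0.0086), as did 3.37% of all genes on the lower side. In simulated data limma called 0.209% of genes changed by 0.5. It therefore cannot decide on the smaller differences of the 6 genes. Since the direction of these genes was known when they were chosen, their common sign is a description.

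**Figure D1:**
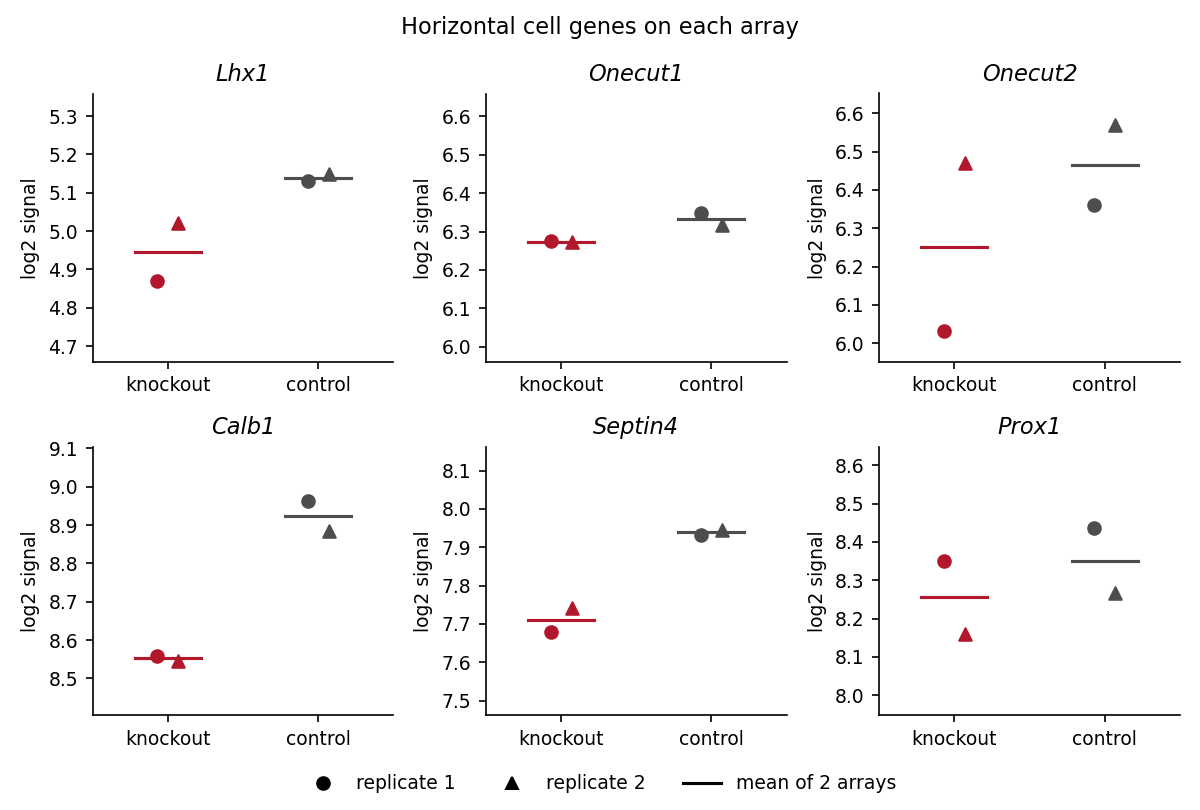
Log2 signal of each horizontal cell gene (vertical axis, the same span of 0.7 in each panel) on the 2 knockout arrays (red) and the 2 control arrays (grey), with circles for replicate 1, triangles for replicate 2 and bars for the mean of 2 arrays. The knockout arrays lie below both control arrays for Lhx1, Onecut1, Calb1 and Septin4, and the groups overlap for Onecut2 and Prox1.

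Among the transcription factors, Lhx1 had 4.87 and 5.02 in the knockout pools, against 5.13 and 5.15 in the control pools. Both knockout arrays lay below both control arrays, and the gap of 0.11 between the groups was smaller than the distance of 0.15 between the knockout arrays. Its mean was 4.95 ± 0.11 in knockout and 5.14 ± 0.01 in control (SD, n = 2 each), a difference of −0.19 (SE 0.10, 95% interval −0.45 to 0.06, limma adjusted p = 0.792). Without replicate 1 of the knockout the difference was −0.12. Among the 6 horizontal cell genes Lhx1 alone had a mean signal under the median of all genes, and no detection values were used, so its signal cannot be told from background.

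Onecut1 had the smallest difference of the 6. It stood at 6.27 and 6.27 on the knockout arrays, against 6.35 and 6.32 on the control arrays, without overlap but only 0.042 apart at the nearest arrays. The means of 6.27 ± 0.0014 in knockout and 6.33 ± 0.02 in control (SD, n = 2 each) differed by −0.06 (SE 0.10, limma adjusted p = 0.963). The 95% interval of this difference ran from 81.7% to 113% of the control signal.

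Onecut2, the close relative of Onecut1, varied most between pools of a genotype. It had 6.03 and 6.47 in the knockout pools, against 6.36 and 6.57 in the control pools, and replicate 2 of the knockout lay above replicate 1 of the control. The distance between the knockout arrays was 0.44, larger than the difference of −0.21 between the means of 6.25 ± 0.31 in knockout and 6.47 ± 0.15 in control (SD, n = 2 each; SE 0.17, limma adjusted p = 0.881). Replicate 2 was the higher array in both genotypes, and within replicates 1 and 2 the difference was −0.33 and −0.10. Leaving out 1 array mixes this offset into the difference. The difference was 0.0043 without replicate 1 of the knockout and −0.43 without replicate 2 of the knockout. Without replicate 2 of the control it was −0.11.

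Prox1 also overlapped between the genotypes. Its levels were 8.35 and 8.16 in the knockout pools, against 8.44 and 8.27 in the control pools, with replicate 1 the higher array in both genotypes. The means were 8.26 ± 0.13 in knockout and 8.35 ± 0.12 in control (SD, n = 2 each), a difference of −0.10 (SE 0.12, limma adjusted p = 0.943). This value moved to −0.0016 without replicate 2 of the knockout and to −0.01 without replicate 1 of the control. It moved to −0.19 and −0.18 without the other knockout and the other control array. These moves include the offset between replicates, and within replicates 1 and 2 the difference was −0.09 and −0.11.

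Calb1 showed the widest separation of the 6 genes. Its levels were 8.56 and 8.55 in the knockout pools, against 8.96 and 8.88 in the control pools. The groups were 0.33 apart at the nearest arrays, while the arrays within a genotype were at most 0.077 apart. The mean was 8.55 ± 0.0079 in knockout and 8.92 ± 0.05 in control (SD, n = 2 each), a difference of −0.37 (SE 0.10), or 77.3% of the control signal with a 95% interval of 65.6% to 91.2%. This difference lay at the 1.78 percentile of all genes' changes and did not pass the test over all genes (limma adjusted p = 0.475).

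Septin4 had 7.68 and 7.74 in the knockout pools, against 7.93 and 7.95 in the control pools, and the gap of 0.19 between the groups exceeded the distances of 0.064 within knockout and 0.013 within control. The means were 7.71 ± 0.05 in knockout and 7.94 ± 0.0092 in control (SD, n = 2 each). Their difference of −0.23 (SE 0.10), or 85.4% of the control signal, had a 95% interval of −0.46 to 0.0079 and a limma adjusted p of 0.723.

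Both knockout arrays thus lay below both control arrays in 4 of the 6 genes, while 18.4% of all genes showed this arrangement. Within replicate numbers, all 6 members were lower in the knockout in replicate 1 and again in replicate 2, as were 28.3% of all genes. The differences were −0.40 and −0.34 for Calb1 in replicates 1 and 2, −0.25 and −0.20 for Septin4, and −0.07 and −0.04 for Onecut1. For Onecut2 they were −0.33 and −0.10, for Lhx1 −0.26 and −0.13, and for Prox1 −0.09 and −0.11. The median over the 6 was −0.26 in replicate 1 and −0.12 in replicate 2.

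**Figure D2:**
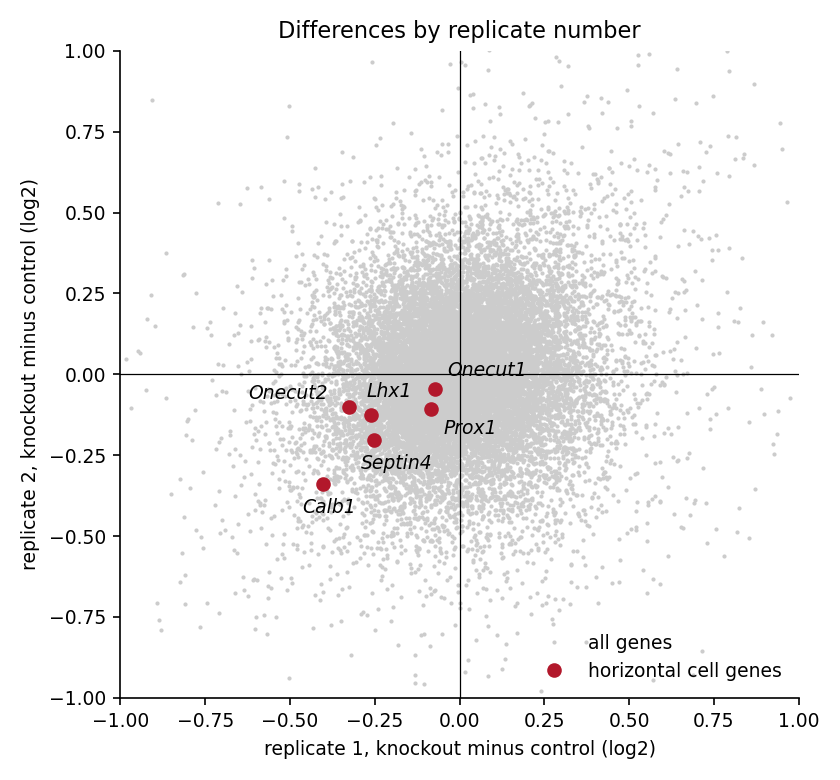
Knockout minus control on the log2 scale in replicate 1 (horizontal axis) and replicate 2 (vertical axis), with all genes in grey and the 6 horizontal cell genes in red. The axes end at 1 and −1, which leaves 122 genes outside the plot. All 6 members lie below and to the left of 0, with Calb1 farthest from 0 at −0.40 and −0.34.

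The members differed in how near they lay to their mean profile over the 4 arrays. Centred on its own mean, Septin4 lay 0.04 and Lhx1 0.06 from the mean profile of the 6 (Euclidean distance on the log2 scale), Onecut1 0.15, Calb1 0.19, Prox1 0.24 and Onecut2 0.30. Among 9706 genes at or above the median signal, 21 lay nearer to the mean profile than Septin4 did, 71 nearer than Lhx1 and 6274 nearer than Onecut2. Each member is part of the mean profile, while the genes it is ranked among are not, and Lhx1 itself lay under the median signal. The distance also counts the size of a change, so genes of like shape but unlike size lie apart. The 5 nearest genes were Nefh, Polh, Efcc1, Ppme1 and Neurog2, at distances of 0.0096 to 0.022 over 4 arrays. Nefh, the heavy neurofilament subunit, had 7.07 and 7.15 in the knockout pools, against 7.29 and 7.29 in the control pools. These 5 genes differed by −0.21 to −0.17 between the genotypes, which their choice by profile fixes. Of the 5, 0 were called, where 0.201% of all genes were. With the mean of its probe sets Efcc1 differed by −0.02.

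Other genes known from horizontal cells were examined in 3 further lists. More of them lay below 0 than above, but they did not all share the sign of the 6. Of 23 measured genes, 17 lay below 0 and 6 above, with a median of −0.08, where 50.9% of all genes lay below 0. Of the 23, 0 were called in either direction, where 0.201% of all genes were. Both knockout arrays lay below both controls in 8 of them and above in 3, against 18.4% and 17% of all genes. Their median was −0.11 in replicate 1 and 0.02 in replicate 2.

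The list of 8 further transcription factors had a median of −0.04, with 5 below 0 and 3 above. Onecut3, the third Onecut factor, lay on the side opposite to its relatives, with 6.15 and 6.09 in the knockout pools, against 5.63 and 5.99 in the control pools, a difference of 0.31 (SE 0.14, limma adjusted p = 0.747). This difference was 0.13 without replicate 1 of the control and 0.49 without replicate 2 of the control, and, like Lhx1, Onecut3 had a mean signal under the median of all genes. Foxn4, a forkhead factor that precedes horizontal and amacrine fates in development, also lay higher. It had 6.02 and 5.84 in the knockout pools, against 5.69 and 5.82 in the control pools, a difference of 0.17 (limma adjusted p = 0.846). The difference was 0.08 without replicate 1 of the knockout, and Foxn4 too had a mean signal under the median of all genes. Tfap2b, an AP-2 factor of horizontal and amacrine cells, had 8.61 and 8.60 in the knockout pools, against 8.68 and 8.74 in the control pools.

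Of 10 measured genes of horizontal cell junctions and synapses, 8 lay below 0, with a median of −0.05. The pair of enzymes that make GABA led this list. Gad1 had 7.33 and 7.30 in the knockout pools, against 7.56 and 7.60 in the control pools, a difference of −0.26 (SE 0.10, limma adjusted p = 0.653). Gad2 had 7.21 and 7.23 in the knockout pools, against 7.45 and 7.37 in the control pools, a difference of −0.19 (limma adjusted p = 0.780). Both genes are also strongly used by amacrine cells. Gria4, a subunit of AMPA-type glutamate receptors, had −0.11. Slc32a1, the vesicular transporter of GABA, lay slightly above both controls on both knockout arrays. It had 7.27 and 7.32 in the knockout pools, against 7.23 and 7.26 in the control pools, and the means differed by 0.05. Gja10, a connexin, differed by −0.39 in replicate 1 and 0.07 in replicate 2.

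Of 5 measured genes of filaments and calcium binding, 4 lay below 0, as did 50.9% of all genes, and the list median was −0.15. The same 4 lay below both controls on both knockout arrays, an arrangement shown by 18.4% of all genes. Nefh differed by −0.18 (SE 0.10, limma adjusted p = 0.792). Nefm, the medium neurofilament subunit, had 9.01 and 8.85 in the knockout pools, against 9.16 and 9.02 in the control pools. Calb2, which encodes the calbindin relative calretinin, had 6.70 and 6.53 in the knockout pools, against 6.77 and 6.75 in the control pools, a difference of −0.15 (limma adjusted p = 0.864). Ganglion and amacrine cells also use these genes.

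**Figure D3:**
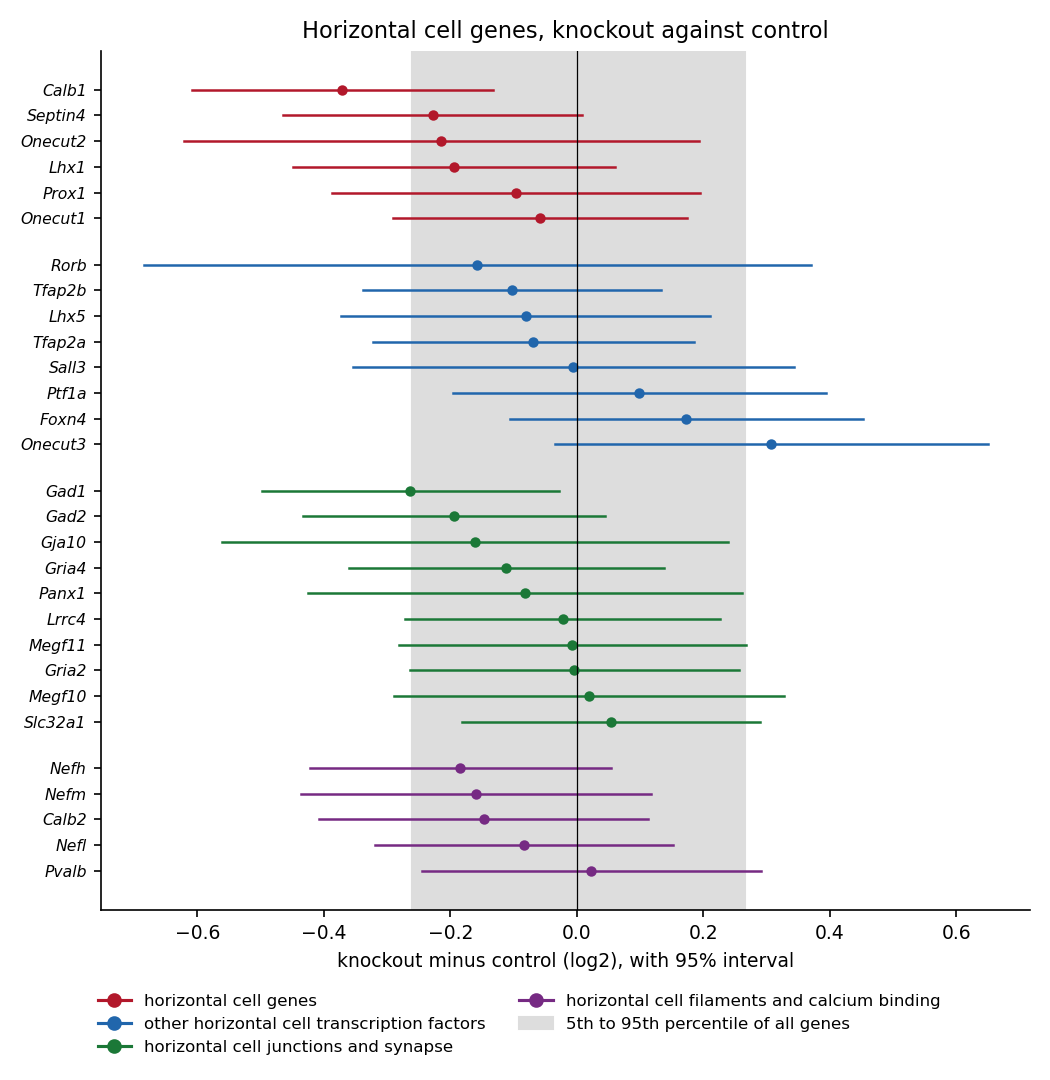
Knockout minus control on the log2 scale (horizontal axis) for the 6 horizontal cell genes and 23 genes of 3 further horizontal cell lists, with points for the limma estimate and lines for its 95% interval. The grey band spans the 5th to 95th percentile of all genes' changes, −0.26 to 0.27. Calb1 and Gad1 have intervals below 0, and among the 6 members the point of Calb1 alone lies outside the band.

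Septin4 was set beside the rest of its family. The other 11 measured septins had a median of 0.01, with 5 below 0 and 6 above, between −0.16 and 0.17. Of these 11 genes 0 were called, where 0.201% of all genes were. Septin11 had 7.63 and 7.71 in the knockout pools, against 7.85 and 7.81 in the control pools, a difference of −0.16 (SE 0.10, limma adjusted p = 0.831). Septin9 and Septin1 each differed by 0.14. No test of the difference between Septin4 and these relatives was made.

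Among other cell types of the inner retina the medians were nearer to 0 than the −0.20 of the 6 genes, and differences between lists were not tested. Bipolar cell genes had a median of −0.05 (8 of 11 below 0), amacrine cell genes 0.0044 (4 of 9 below 0) and ganglion cell genes −0.03 (5 of 7 below 0). Both knockout arrays lay below both controls in 4 bipolar, 0 amacrine and 1 ganglion cell genes, against 18.4% of all genes. They lay above both controls in 1, 2 and 1 genes of these lists, against 17% of all genes. In these lists 0 genes were called, where 0.201% of all genes were. Sebox, a homeobox gene of bipolar cells, had −0.28 (SE 0.11, limma adjusted p = 0.665), and Prkca, the protein kinase that marks rod bipolar cells, −0.20. Chat, the enzyme of acetylcholine synthesis in starburst amacrine cells, had 4.72 and 5.10 in the knockout pools, against 4.63 and 4.72 in the control pools, with overlap. Its difference of 0.24 was 0.05 without replicate 2 of the knockout and 0.43 without replicate 1 of the knockout, and that of Tfap2c, an AP-2 factor of amacrine cells, was 0.11. Pou4f3, a ganglion cell transcription factor, had 0.43 (SE 0.11, limma adjusted p = 0.483), and Rbpms, an RNA-binding protein of ganglion cells, −0.06. Chat, Tfap2c and Pou4f3 had mean signals under the median of all genes.

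**Figure D4:**
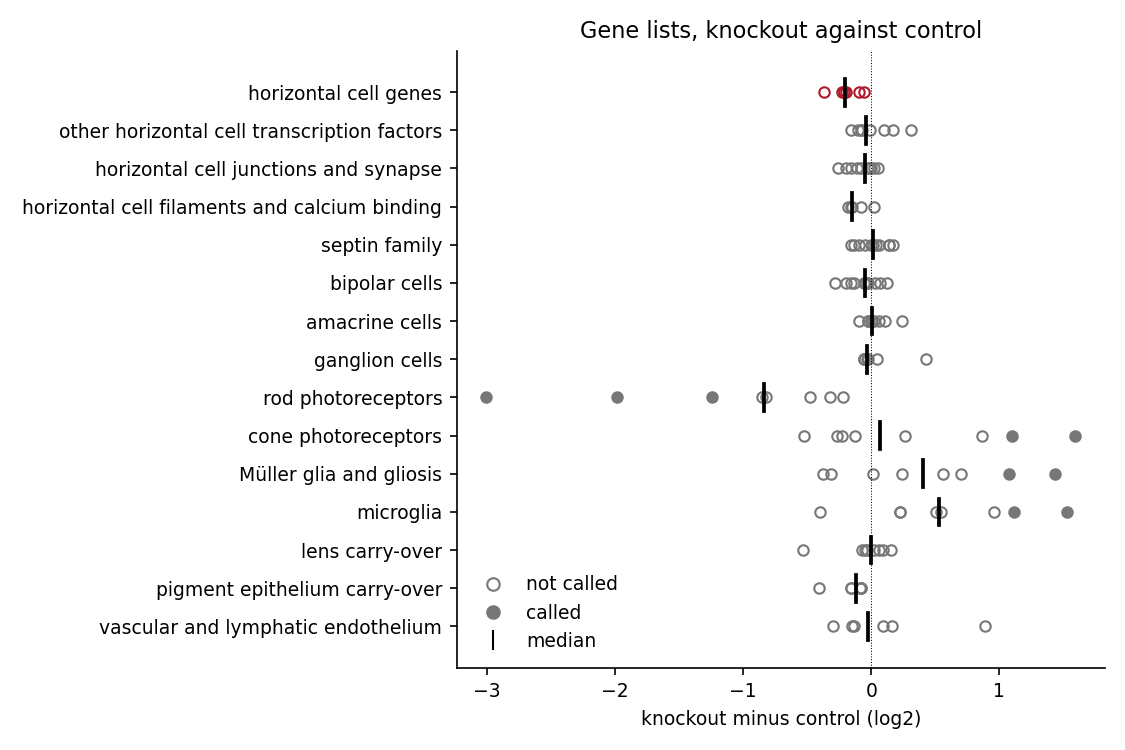
Knockout minus control on the log2 scale (horizontal axis) for each measured gene of 15 lists, with filled points for genes called at a limma adjusted p under 0.05, open points for the others, and black bars for list medians. The 6 horizontal cell genes (red, top row) lie between −0.37 and −0.06 with a median of −0.20, while the rod list has a median of −0.84 and the microglial list one of 0.53.

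Larger changes in other cells ran alongside. Over all genes 0.0618% were called lower and 0.139% higher. Every one of the 8 measured rod genes was lower in the knockout (median −0.84), and 3 fell (limma adjusted p under 0.05). Gnat1 changed by −3.01, Reep6, a membrane trafficking protein of rods, by −1.99, and Rom1, a disc rim protein, by −1.24. The mean level over all 8 rod genes was 9.54 and 9.55 on the knockout arrays, against 10.68 and 10.64 on the control arrays. In the cone list Gnb3 and Gnat2, transducin subunits of cones, rose by 1.59 and 1.10, while 6 of 8 genes were not called. Of the 8, 4 lay above 0 and 4 below, with a list median of 0.07. The lowest was the opsin gene Opn1sw at −0.52, which was not called. In the list of Müller glia and gliosis A2m, a protease inhibitor, and Stat3, a carrier of cytokine signals, rose by 1.44 and 1.08. Of its 8 genes 6 lay above 0 and 2 below, the Müller glia genes Glul (−0.37) and Rlbp1 (−0.32), neither of them called. The list had a median of 0.40 and a mean of 7.80 and 7.76 on knockout arrays, against 7.37 and 7.35 on control arrays. In the microglial list Ctss, a lysosomal protease, and Tyrobp, a myeloid signalling adaptor, rose by 1.53 and 1.12. Of its 8 genes 7 lay above 0 and 1 below, Tmem119 at −0.40, which was not called. The mean over the list was 6.50 and 6.50 on knockout arrays, against 5.88 and 5.94 on control arrays. Of these 9 calls 0 remained without either control array, and 2 remained without each knockout array in turn, Gnat1 and Reep6. The part of these shifts in the values of the horizontal cell genes was not tested.

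Tissue carried over at dissection was also examined, since Prox1 is active in lens fibres and in lymphatic endothelium. The 8 lens genes had a median of −0.0034 and means of 5.90 and 5.97 on the knockout arrays, against 5.90 and 6.06 on the control arrays. Crygs, a lens crystallin, had 5.75 and 5.38 in the knockout pools, against 5.86 and 6.34 in the control pools, and Bfsp1, of the lens beaded filament, had 0.16. The 6 pigment epithelium genes were all lower in knockout, their median being −0.12, and their median difference was −0.36 in replicate 1 and 0.04 in replicate 2. Rpe65, the retinoid isomerase of that tissue, had 6.72 and 6.37 in the knockout pools, against 7.31 and 6.60 in the control pools, with overlap. Ttr, the retinol carrier transthyretin, differed by −0.35 in replicate 1 and 0.04 in replicate 2. The 6 endothelial genes had a median of −0.02, with Pdpn, which encodes podoplanin and which reactive glia also make, at 0.89 (limma adjusted p = 0.0840) and Pecam1, of endothelial junctions, at −0.30. None of the 20 genes of these 3 lists was called. Over all genes 0.201% were called, so 0 calls among 20 genes carry little information. The part of these lists in the horizontal cell values was not tested.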

How the data were processed

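The labels' protocols name TRIzol LS and RNeasy for the RNA and a NuGen Pico amplification that gave biotinylated cDNA. Log2 values deposited by the authors for 21897 probe sets were used as they stand; the log2 scale was read from their range, 1.34 to 12.75. Per the submitters' processing notes, affy and limma were used, with no versions; the background correction and array normalization were not given in the sources used here. By the platform annotation, 20877 probe sets carried 1 gene symbol. The 175 with several symbols and the 845 with none were not tested. RefSeq names of GRCm38.p6, matched by gene ID, changed 0 symbols, and 34 IDs had no match. For 778 genes with more probe sets than 1, that with the highest mean was taken.

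The comparison used limma 3.58.1 (R 4.3.3) with lmFit, eBayes and genotype as the only term, two-sided, with Benjamini-Hochberg adjustment over 19421 genes and calls at an adjusted p under 0.05. SE and 95% intervals are moderated, and fold changes are knockout minus control. Replicates are pools of animals, so p-values measure the spread between pools. Within each genotype the pools also differed in Xist, a sex-linked gene, so this spread includes whatever goes with that difference. With 2 arrays against 2 an exact permutation test can give no p below 0.333. The steps were tested on simulated data.

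The members and lists were chosen with earlier results of these data known. Named genes were the 6 members, Nrl, the 3 genes with the smallest p in each further horizontal cell list and the septin list, 2 in each other list plus any called, and the 5 genes nearest in profile. Slc32a1, Gja10, Opn1sw, Glul, Rlbp1 and Tmem119 are given as well for their direction, and are outside the counts of named genes. Alternatives were other scalings, a signal filter, a variance trend, averaged probe sets, a replicate block and leaving out each array.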

Additional observations from a re-analysis of the deposited data

How the results depend on the processing

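None of the 6 horizontal cell genes was called by limma under any of the 10 alternatives run. The smallest adjusted p among them was 0.110, for Calb1 with a variance trend, and the adjusted p of Calb1 ran up to 1 over the alternatives. The median of the 6 stayed between −0.22 and −0.20 under the scalings, the variance trend, averaged probe sets, the replicate block and the signal filter, which left out Lhx1, and between −0.26 and −0.15 when 1 array was left out. With 1 array left out Onecut2 lay between −0.43 and 0.0043, turning its sign without replicate 1 of the knockout. No other gene of the counted named set changed its sign under these alternatives. Of 29 other named genes that were not called, 16 moved by over 1.5 times when 1 array was left out and 9 were dropped by the signal filter, so their sizes are loose. Over all genes 39 were called (27 higher, 12 lower). The count was 89 when dim genes, below the 50th percentile, were dropped (9711 genes tested), 128 with a variance trend, and between 0 and 11 when 1 array was left out. Without either control array limma called 0 genes (1355 and 1328 at an unadjusted p under 0.05). With 1 array left out, the lone array of a genotype is assumed to vary like the other pair. With the replicate number as a block 8 genes were called and Gnat1 and Reep6 of the 9 called genes named. The labels do not say what the number marks, but the level of Xist, a sex-linked gene, followed it in both genotypes. Same-numbered arrays deviated together from their group means (r = 0.24 across genes, 0.14 without 4 sex-linked genes), which is no more than a hint with 2 pairs. Pdpn was called after quantile normalization (adjusted p = 0.0494), with the signal filter (0.0181) and with a variance trend (0.0053). The cause of these shifts was not tested.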
